A study of Homo sapiens with 18 samples.

Results

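RBM39, its paralogue RBM23 and 6 subunits of the ligase that carries the receptor DCAF15 were followed at the mRNA level in KBM7 cells, a human chronic myelogenous leukaemia line. The 8 genes are RBM39, RBM23, DCAF15, DDB1, DDA1, CUL4A, CUL4B and RBX1. The rule takes them by symbol in the GENCODE 29 annotation and uses no measured value, although the set was drawn up with earlier results of these data known, and each symbol matched a single identifier among the 58051 in the count tables. All 8 passed the filter on low counts and are among the 15055 genes tested. Cells had received one of the compounds dCeMM-1 to dCeMM-4, each at 10 times its EC50, or THZ531 at 600 nM, or DMSO as the solvent control. Every treatment lasted 5 h, every group has 3 libraries of polyadenylated RNA, and all cells grew in the same serum-containing medium. The sources used here give no molar concentration for the dCeMM compounds, so their doses match as multiples of EC50 only, and the dose of THZ531 is not matched to them.

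RBM39 is an RNA-binding splicing factor that works with the U2AF complex in recognising 3′ splice sites, and RBM23 is its closest relative. Aryl sulfonamides such as indisulam act as molecular glues that bind DCAF15 and bring RBM39, and also RBM23, to it for ubiquitination and degradation. In this ligase DCAF15 is the substrate receptor, DDB1 the adaptor that holds it, DDA1 a small subunit that steadies the pair, CUL4A or CUL4B the scaffold and RBX1 the RING subunit that recruits the ubiquitin-conjugating enzyme. The compound dCeMM-1 degrades RBM39 through DCAF15. The remaining dCeMM compounds degrade cyclin K by bringing its kinase partner CDK12 to DDB1 without a substrate receptor, and THZ531 binds CDK12 and CDK13 covalently and blocks their kinase activity. The libraries hold mRNA only, so none of the values below speaks of protein.

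Promoter sequences are shown for 3 of the genes, because RBM23 had the largest fall of the 8, DCAF15 differed most among the dCeMM compounds after RBM23 and RBM39, and DDB1 moved little. RefSeq's promoter table (GRCh38.p14) has entries for 6 of the 8 genes and none for RBM39 or DDA1. Each line gives the 250 bases before the start in RefSeq, which can differ from that in GENCODE, 5′ to 3′ on the strand of the gene, and capitals mark matches on either strand. The motifs searched were the GC box with the letters GGGCGG, the CCAAT box, the ETS site with the letters CCGGAAG and the NRF1 site. The windows are chr14:22919150-22919399 on the minus strand for RBM23, chr19:13952259-13952508 on the plus strand for DCAF15 and chr11:61333106-61333355 on the minus strand for DDB1. The DDB1 window lies inside the GENCODE gene (61299451 to 61342596), downstream of the start annotated there. The RBM23 and DCAF15 windows span their GENCODE starts.
RBM23: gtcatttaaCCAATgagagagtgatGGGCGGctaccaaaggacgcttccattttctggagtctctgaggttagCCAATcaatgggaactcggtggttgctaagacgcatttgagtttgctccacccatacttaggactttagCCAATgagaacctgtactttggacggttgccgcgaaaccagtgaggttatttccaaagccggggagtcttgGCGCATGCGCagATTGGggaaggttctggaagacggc
DCAF15: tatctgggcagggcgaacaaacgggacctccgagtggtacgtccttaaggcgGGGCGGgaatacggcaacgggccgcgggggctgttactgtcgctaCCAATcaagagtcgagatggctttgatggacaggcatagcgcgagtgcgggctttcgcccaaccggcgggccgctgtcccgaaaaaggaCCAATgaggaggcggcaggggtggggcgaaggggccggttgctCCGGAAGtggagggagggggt
DDB1: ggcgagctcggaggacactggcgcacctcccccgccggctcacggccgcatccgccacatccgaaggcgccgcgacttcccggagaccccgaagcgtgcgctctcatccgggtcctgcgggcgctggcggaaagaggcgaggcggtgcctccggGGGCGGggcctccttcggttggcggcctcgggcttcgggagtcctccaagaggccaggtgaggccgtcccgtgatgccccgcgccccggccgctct
The RBM23 window holds 4 CCAAT matches, 1 GC box and 1 NRF1 match, which do not overlap each other. Across 35116 promoters of the same length, 32.0% hold at least 1 CCAAT match, 0.874% hold at least 4, 42.6% hold a GC box, 8.52% an ETS match and 5.08% an NRF1 match. The DCAF15 window holds 2 CCAAT matches, 1 GC box and 1 ETS match, and the DDB1 window holds 1 GC box. The cutoff of 4 equals the count in the RBM23 window, and the share with at least 2, the DCAF15 count, was not computed. Any link between these matches and the mRNA levels was not tested. CUL4A and CUL4B each have 4 entries with different starts and are not shown. The cyclic AMP response element, with the letters TGACGTCA, was also searched, and so was the letter run TATAAA. Neither is in the 3 windows shown, and 1.65% and 10.7% of all promoters hold them. A match describes letters in a window and says nothing of binding.

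Counts of all genes in a library ranged from 4598576 in DMSO replicate 3 to 17943571, and the 8 genes together took between 6000 and 27758 counts. The lowest count of any of them in a library was 68, for RBM23 in dCeMM-2 replicate 3. The 10 genes listed for KBM7 were PTPRC, CD33, KIT, SPI1, MYB, RUNX1, GATA2, ITGA4, BCR and ABL1. Not all of them, BCR and ABL1 for example, are particular to the myeloid or progenitor lineage. Each was detected in every library, with no value below 12.4 CPM (read counts scaled to library size). Among 8 markers of other cell types the highest median was 2.65 CPM, for CD3E, and ALB, COL3A1, MS4A1 and CDH5 had a median of 0. Replicate 1 of THZ531 stood apart from replicates 2 and 3, with a chi-square per degree of freedom of 17.2 and 18.9 over genes, against 1.43 between those. Same-group pairs of the other groups ranged from 2.53 to 14.7, so replicates 2 and 3 of THZ531 were the closest pair of the series. Whether they come from separate cultures is not stated. Levels below are CPM scaled by TMM (trimmed mean of M values), which holds the bulk of genes near no change, so they are relative to the other genes. Libraries also carried synthetic spike-in RNA, and scaling by it shifted the median of all genes, as a log2 fold change, by 0.070 with dCeMM-1, -1.78 with dCeMM-2, -1.81 with dCeMM-3, -0.56 with dCeMM-4 and -1.84 with THZ531. Values on that scale are named where given, and the sources used here do not state what quantity, cells or RNA, the spike-in amount was matched to. In these bulk libraries fewer cells and less RNA per cell cannot be told apart. Tests are edgeR's quasi-likelihood test with Benjamini-Hochberg adjustment over all genes tested, with a threshold of 0.05, and SE is that of the log2 fold change.

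RBM39 (ENSG00000131051, chromosome 20, 35701347 to 35742312, minus strand, GRCh38) had 568, 546 and 568 CPM with dCeMM-1, against 313, 309 and 319 CPM in DMSO. The 3 dCeMM-1 libraries lay above every DMSO library, a rise of 0.84 as a log2 fold change (SE 0.07, adjusted p = 1.81e-11) and of 0.90 by spike-in scaling (SE 0.20, adjusted p = 0.00155). Only 4.72% of the genes tested had a higher log2 fold change with dCeMM-1. The mRNA of the factor that this compound is known to degrade was therefore higher, on both scalings, after 5 h.

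With dCeMM-4, RBM39 had 430, 430 and 477 CPM, also above all DMSO libraries and higher by 0.51 in log2 units (SE 0.07; adjusted p = 8.20e-08). Under spike-in scaling this rise was not called, with a log2 fold change of -0.059 (95% interval -0.45 to 0.33). With dCeMM-2 the values were 256, 251 and 210 CPM, and with THZ531 they were 228, 230 and 227 CPM, so every library of both groups was below DMSO. These falls were of 0.39 (dCeMM-2, -0.39, SE 0.07, adjusted p = 1.13e-05) and 0.46 (THZ531, -0.46, SE 0.07, adjusted p = 6.19e-07) on the log2 scale, and on the spike-in scale the log2 fold changes were -2.17 and -2.31. With dCeMM-3 RBM39 fell furthest, to 122, 107 and 142 CPM, with a difference of -1.34 on the log2 scale (SE 0.08, adjusted p = 4.57e-19) and of -3.15 by spike-in scaling.

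In order of level RBM39 stood highest with dCeMM-1 (561 ± 12.7 CPM), then dCeMM-4 (445 ± 27.1), DMSO (314 ± 4.69), dCeMM-2 (239 ± 25.2), THZ531 (228 ± 1.34) and dCeMM-3 (123 ± 17.4; SD, n = 3 each). Of the neighbours in this order, dCeMM-2 and THZ531 did not differ beyond their spread: their libraries overlapped and the log2 difference was 0.070 (95% interval -0.08 to 0.22, adjusted p = 0.531, edgeR). The other neighbours were called different, including dCeMM-1 over dCeMM-4, which share the multiple of EC50, by 0.33 (SE 0.07, adjusted p = 8.07e-05).

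**Figure D1:**
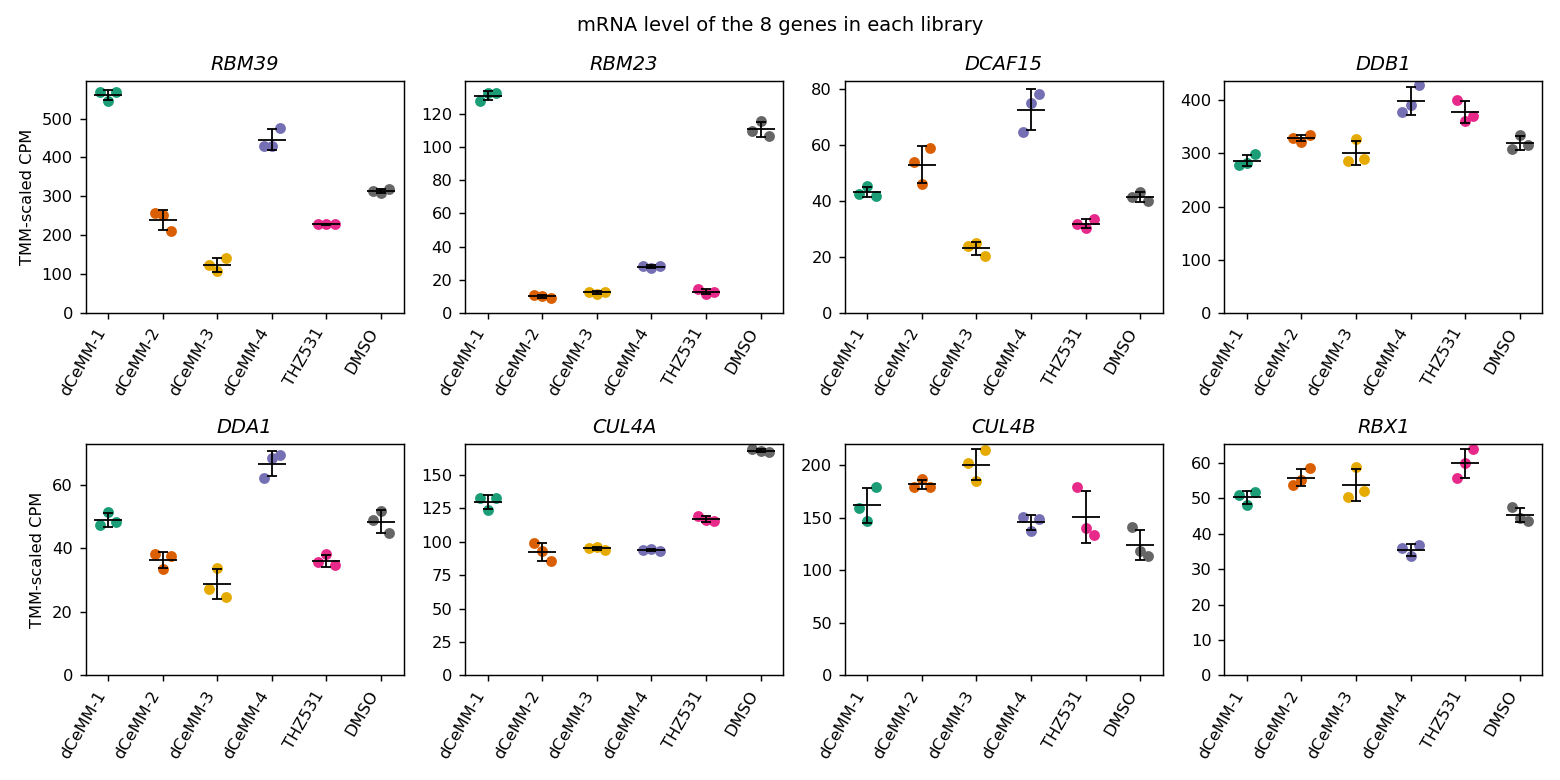
TMM-scaled CPM (y axes from 0) of the 8 genes in each of the 18 libraries, by group (x axes); points are libraries, bars the mean and whiskers the SD of 3. RBM39 is above DMSO with dCeMM-1 and dCeMM-4 and below it in the other 3 groups, whereas RBM23 lies between 8.68 and 28.5 CPM in all 12 libraries of dCeMM-2, dCeMM-3, dCeMM-4 and THZ531, against 107 to 116 CPM in DMSO.

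RBM23 (ENSG00000100461, chromosome 14, 22893206 to 22919184, minus strand) fell several-fold relative to the other genes in 4 of the 5 treatments. With dCeMM-2 it had 10.6, 10.4 and 8.68 CPM, against 110, 116 and 107 CPM in DMSO, which is 11.1-fold lower (log2 fold change -3.47, SE 0.09, adjusted p = 2.41e-28). Values with dCeMM-3 were 12.6, 11.5 and 12.8 CPM, 8.99-fold lower than DMSO (-3.17, SE 0.09, adjusted p = 1.62e-28). With THZ531 they were 14.4, 11.3 and 12.5 CPM, 8.70-fold lower (-3.12, SE 0.09, adjusted p = 6.31e-28). No library of these 3 groups came near the DMSO range. With dCeMM-4 the fall was smaller, to 28.5, 26.9 and 28.2 CPM, 3.98-fold lower (-1.99, SE 0.08, adjusted p = 6.49e-23).

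The spike-in scale gave falls of RBM23 that were larger still, with log2 fold changes of -5.26 for dCeMM-2, -4.99 for dCeMM-3, -4.96 for THZ531 and -2.56 for dCeMM-4. Against the whole transcriptome RBM23 was far down in each: 99.4% of the genes tested had a higher log2 fold change under dCeMM-2, 96.6% under dCeMM-3, 95.8% under dCeMM-4 and 97.9% under THZ531. For RBM39 the shares were 60.4% under dCeMM-2, 75.3% under dCeMM-3, 25.3% under dCeMM-4 and 59.9% under THZ531.

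dCeMM-1 gave the opposite direction for RBM23, at 128, 133 and 132 CPM, above all 3 DMSO libraries. The log2 fold change was 0.24 (SE 0.07; adjusted p = 0.00844), and on the spike-in scale the value was 0.30 and did not pass the threshold (95% interval -0.11 to 0.71, adjusted p = 0.509). In order of level RBM23 had 131 ± 2.56 CPM with dCeMM-1, 111 ± 4.64 in DMSO, 27.9 ± 0.820 with dCeMM-4, 12.7 ± 1.54 with THZ531, 12.3 ± 0.685 with dCeMM-3 and 9.88 ± 1.05 with dCeMM-2 (SD, n = 3 each). THZ531 and dCeMM-3 did not differ beyond their spread (dCeMM-3 minus THZ531 -0.048 on the log2 scale, 95% interval -0.26 to 0.17). dCeMM-2 was below dCeMM-3 by a called difference of -0.30 (SE 0.11, adjusted p = 0.0279), but by spike-in scaling their libraries overlapped and the difference of -0.27 was not called (adjusted p = 0.505).

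**Figure D2:**
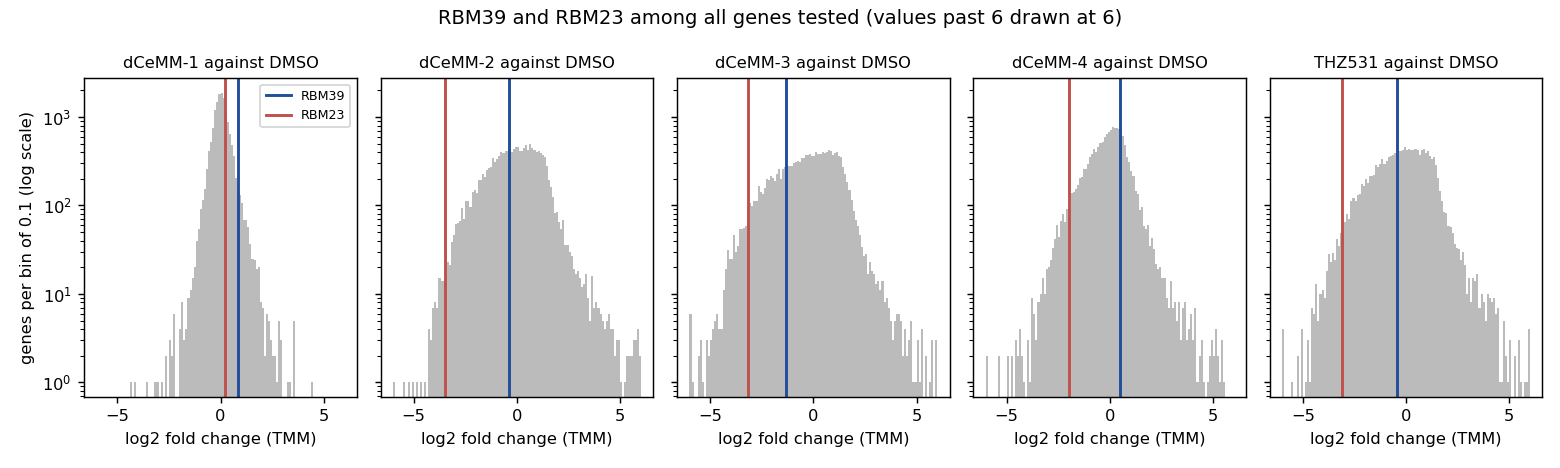
Number of genes (log y axis) by TMM-scaled log2 fold change against DMSO (x axes) for each compound, over the 15055 genes tested, with RBM39 and RBM23 marked by vertical lines. RBM39 is at 0.84 and RBM23 at 0.24 with dCeMM-1, while with dCeMM-2, dCeMM-3, dCeMM-4 and THZ531 RBM23 sits in the lower tail, at -3.47, -3.17, -1.99 and -3.12.

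The ratio of RBM23 to RBM39 counts within a library does not depend on how libraries are scaled, and it was lower in every treated library than in every DMSO library. It was 0.226, 0.243 and 0.233 with dCeMM-1, 0.0415, 0.0412 and 0.0413 with dCeMM-2 and 0.103, 0.108 and 0.0903 with dCeMM-3. With dCeMM-4 it was 0.0663, 0.0627 and 0.0592 and with THZ531 0.0631, 0.0492 and 0.0551, against 0.351, 0.374 and 0.335 in DMSO. Divided by the DMSO ratio, it came to 0.663 with dCeMM-1, 0.117 with dCeMM-2, 0.284 with dCeMM-3, 0.178 with dCeMM-4 and 0.157 with THZ531. Each comparison has an exact two-sided permutation p of 0.1, the smallest that 3 libraries against 3 allow, so none can pass 0.05. The ratio shows unequal change of the paralogues. With dCeMM-1 both rose under TMM scaling, RBM39 by more, and by spike-in scaling only the rise of RBM39 was called.

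DCAF15 (ENSG00000132017, chromosome 19, 13952492 to 13961449, plus strand), the receptor that binds the aryl sulfonamides, split the compounds. It had 64.5, 75.2 and 78.3 CPM with dCeMM-4, against 41.2, 43.4 and 39.9 CPM in DMSO, which is 0.80 higher in log2 units (SE 0.09; adjusted p = 2.55e-10). With dCeMM-2 it had 53.9, 46.0 and 59.0 CPM, higher by 0.34 (SE 0.09, adjusted p = 0.00119). Both groups lay above all DMSO libraries. On the spike-in scale, however, the log2 fold change was 0.26 with dCeMM-4 (adjusted p = 0.323) and -1.45 with dCeMM-2, so the rise with dCeMM-4 was no longer called and that with dCeMM-2 turned into a fall.

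DCAF15 was lower with dCeMM-3, at 23.8, 25.0 and 20.4 CPM (log2 fold change -0.86, SE 0.10, adjusted p = 3.22e-10), and with THZ531, at 31.9, 30.2 and 33.7 CPM (-0.39, SE 0.09, adjusted p = 0.000359). The call with THZ531 was lost with a filter of 5 CPM in 3 libraries (-0.19, adjusted p = 0.0610). With dCeMM-1 the 3 libraries, at 42.4, 45.3 and 41.7 CPM, overlapped those of DMSO, and the interval of the log2 difference ran from -0.13 to 0.23. The mRNA of the receptor through which RBM39 glues act thus showed no detectable difference with the RBM39 degrader. At the matched multiple of EC50, DCAF15 was lower with dCeMM-3 than with dCeMM-4, with a log2 difference of -1.66 (SE 0.09; adjusted p = 4.27e-19).

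DDB1 (ENSG00000167986, chromosome 11, 61299451 to 61342596, minus strand), the adaptor of CRL4 ligases, moved least under TMM scaling. It averaged 287 ± 11.0 CPM with dCeMM-1, 329 ± 6.21 with dCeMM-2, 301 ± 22.9 with dCeMM-3, 399 ± 26.6 with dCeMM-4 and 377 ± 20.7 with THZ531, against 320 ± 13.7 CPM in DMSO (SD, n = 3 each). It rose with dCeMM-4 by 0.32 in log2 units (SE 0.06; adjusted p = 2.92e-05) and with THZ531 by 0.24 (SE 0.06; adjusted p = 0.000931), the second call being lost with no filter on low counts (0.16, adjusted p = 0.0869). With the other 3 compounds no difference was called, and the 95% intervals were -0.29 to -0.03 for dCeMM-1, -0.09 to 0.17 for dCeMM-2 and -0.22 to 0.04 for dCeMM-3. The dCeMM-1 libraries, at 278 to 299 CPM, all lay below DMSO, at 309 to 335 CPM (adjusted p = 0.0520, edgeR), and scaling by DESeq2 size factors put this fall past the threshold (-0.19, adjusted p = 0.0263), as did leaving out DMSO replicate 1 (-0.19, adjusted p = 0.0432). With dCeMM-2 a rise was called with a filter of 5 CPM (0.21, adjusted p = 0.00347) and in a fit of the groups compared only (0.14, adjusted p = 0.0497), and with dCeMM-3 a fall was called without dCeMM-3 replicate 2 (-0.17, adjusted p = 0.0154). By spike-in scaling DDB1 was at -1.75 with dCeMM-2, -1.93 with dCeMM-3, -0.25 with dCeMM-4 and -1.61 with THZ531, so neither rise holds there. TKFC, which shares 3.73% of the exon bases of DDB1 on the opposite strand, was at 10.0 CPM in DMSO and no higher than 25.0 CPM in any group mean. It was called higher with dCeMM-2 (1.18), dCeMM-3 (1.30) and THZ531 (1.27), and not with dCeMM-1 or dCeMM-4. Of the other genes that share exon bases on the opposite strand, PODNL1 (6.42% of DCAF15) and PRMT5-AS1 (1.33% of RBM23) did not pass the filter on low counts, and ANO8 (1.72% of DDA1) was at 5.90 CPM in DMSO. ANO8 was called higher with dCeMM-2 (0.79) and dCeMM-3 (0.65), and not with the other compounds. The part of reads from these genes in the DDB1, DCAF15, RBM23 and DDA1 values was not tested.

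DDA1 (ENSG00000130311, chromosome 19, 17309518 to 17323301, plus strand), the small subunit that steadies DDB1 and DCAF15, followed the same split as RBM39 among dCeMM-2, dCeMM-3, dCeMM-4 and THZ531. It had 62.0, 68.4 and 69.3 CPM with dCeMM-4, against 48.8, 51.7 and 44.7 CPM in DMSO, a rise of 0.45 (SE 0.09, adjusted p = 1.98e-05) that became -0.098 by spike-in scaling. It fell to between 33.3 and 38.2 CPM under dCeMM-2 (-0.43, SE 0.09), 24.8 and 33.9 CPM under dCeMM-3 (-0.78, SE 0.09) and 34.6 and 38.2 CPM under THZ531 (-0.44, SE 0.09). With dCeMM-1 its libraries overlapped those of DMSO (95% interval -0.17 to 0.18).

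The paired scaffolds CUL4A and CUL4B changed unequally in all 5 treatments, as their ratio within libraries shows on any scaling. CUL4A (ENSG00000139842, chromosome 13, 113208193 to 113267108, plus strand) had 133, 124 and 133 CPM with dCeMM-1, 99.2, 93.0 and 85.5 with dCeMM-2 and 95.5, 95.8 and 93.9 with dCeMM-3. It had 93.9, 94.5 and 93.0 CPM with dCeMM-4 and 119, 116 and 115 with THZ531, against 169, 168 and 167 CPM in DMSO. Every treated library was below every DMSO library, and all 5 falls passed the test, at -0.37 with dCeMM-1, -0.86 with dCeMM-2, -0.82 with dCeMM-3, -0.84 with dCeMM-4 and -0.52 with THZ531 (SE 0.06 each). The lower levels with dCeMM-2, dCeMM-3 and dCeMM-4 were not called different from each other, with log2 differences of -0.034 (dCeMM-2 minus dCeMM-3, 95% interval -0.17 to 0.10), -0.014 (dCeMM-2 minus dCeMM-4, -0.15 to 0.12) and 0.019 (dCeMM-3 minus dCeMM-4, -0.11 to 0.15). By spike-in scaling, however, CUL4A was lower with dCeMM-2 and with dCeMM-3 than with dCeMM-4, with called log2 differences of -1.23 and -1.24. Under spike-in scaling the fall with dCeMM-1 was -0.31 and no longer passed the threshold (adjusted p = 0.484), whereas the others ranged from -1.41 to -2.65 and passed it.

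CUL4B (ENSG00000158290, chromosome X, 120524609 to 120575794, minus strand) had 160, 147 and 180 CPM with dCeMM-1, 180, 187 and 179 with dCeMM-2 and 202, 185 and 215 with dCeMM-3, against 141, 118 and 114 CPM in DMSO. These 3 groups lay above all DMSO libraries, with rises of 0.37 (SE 0.09, adjusted p = 0.00196), 0.54 (SE 0.09, adjusted p = 4.00e-06) and 0.68 (SE 0.09, adjusted p = 6.04e-08) on the log2 scale. With dCeMM-4, at 150, 138 and 149 CPM, and with THZ531, at 179, 140 and 134 CPM, libraries overlapped those of DMSO, and the called rises of 0.22 (adjusted p = 0.0335) and 0.27 (adjusted p = 0.00821) each rest on single libraries. The dCeMM-4 call was lost without DMSO replicate 2 or 3 or dCeMM-4 replicate 1 or 3, at adjusted p from 0.0861 to 0.153. The THZ531 call was lost without DMSO replicate 2 or 3 (adjusted p = 0.0694 and 0.0650) or without THZ531 replicate 1, where the value was 0.12 (adjusted p = 0.214). Scaled by spike-ins, CUL4B was at 0.46 with dCeMM-1 and not called (adjusted p = 0.205), and at -1.22 with dCeMM-2, -1.11 with dCeMM-3, -0.33 with dCeMM-4 and -1.53 with THZ531.

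**Figure D3:**
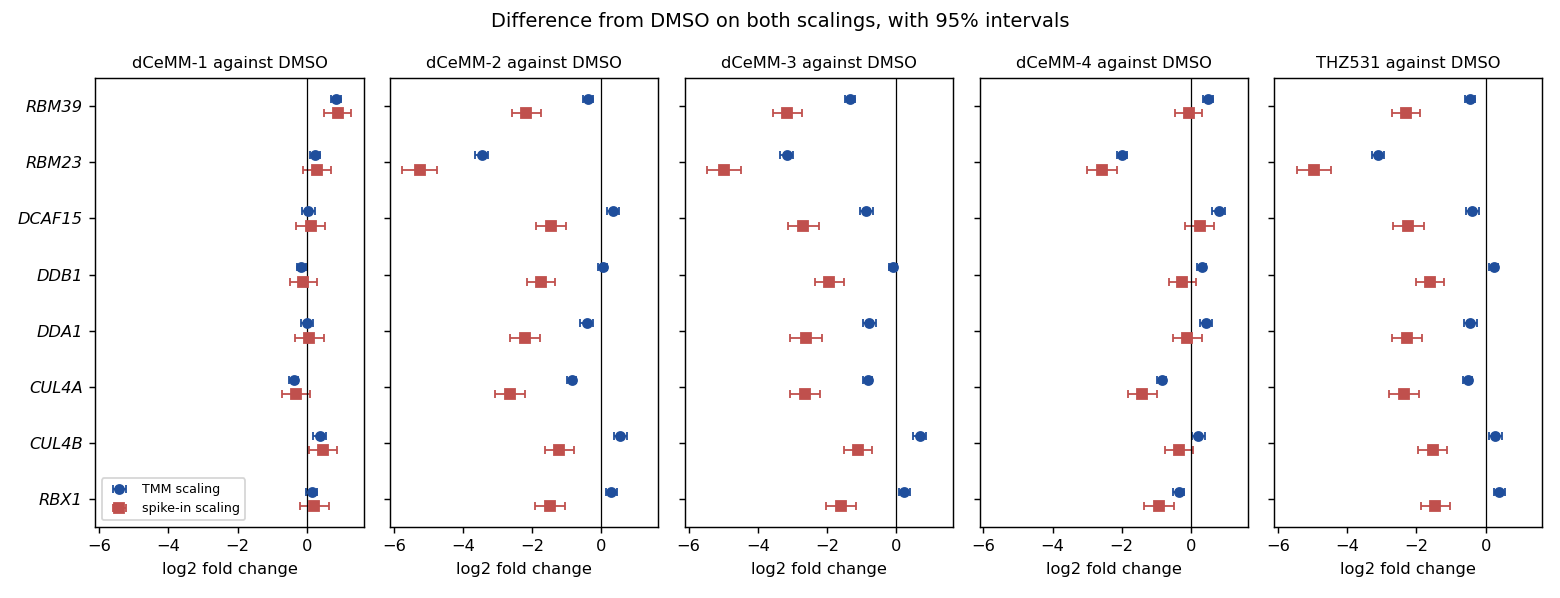
Log2 fold change against DMSO (x axes) of the 8 genes (rows) for each compound, with TMM scaling (circles) and spike-in scaling (squares) and 95% intervals from the model. For dCeMM-2, dCeMM-3 and THZ531 all 8 squares are below 0, while the circles of CUL4B and RBX1 are above it, and with dCeMM-1 both scalings nearly coincide.

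The count ratio of CUL4A to CUL4B, which is free of the scaling, dropped below 1 in every treated library. It was 0.833, 0.844 and 0.740 with dCeMM-1, 0.552, 0.497 and 0.477 with dCeMM-2 and 0.473, 0.517 and 0.438 with dCeMM-3. With dCeMM-4 it was 0.625, 0.685 and 0.625 and with THZ531 0.667, 0.831 and 0.861, against 1.20, 1.42 and 1.47 in DMSO. All 15 treated libraries were thus below all 3 of DMSO, and the log2 differences were -0.76 with dCeMM-1, -1.42 with dCeMM-2, -1.52 with dCeMM-3, -1.07 with dCeMM-4 and -0.80 with THZ531 (exact two-sided permutation p = 0.1 each, the smallest possible). PCID2, which shares 5.55% of the exon bases of CUL4A on the opposite strand, was also lower with dCeMM-2 (-0.46), dCeMM-3 (-0.27), dCeMM-4 (-0.78) and THZ531 (-0.71), at 60.9 CPM in DMSO. The strand setting of the counting is not stated, and the part of reads from PCID2 in the CUL4A values was not tested.

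RBX1 (ENSG00000100387, chromosome 22, 40951347 to 40973309, plus strand), the RING subunit shared by most cullin ligases, was called lower only with dCeMM-4 among the 5 compounds under TMM scaling. It had 36.1, 33.6 and 36.9 CPM with dCeMM-4, against 47.6, 44.6 and 43.7 CPM in DMSO (-0.36, SE 0.08, adjusted p = 0.000170), and on the spike-in scale this was -0.92 (adjusted p = 8.58e-05). With THZ531 it had 55.8 to 63.8 CPM, with dCeMM-2 53.8 to 58.5 CPM and with dCeMM-3 50.4 to 58.9 CPM, all above DMSO and called higher by 0.40, 0.29 and 0.24 (SE 0.08 each), though at -1.45, -1.48 and -1.58 on the spike-in scale. The call with dCeMM-3 was lost without dCeMM-3 replicate 2 (0.15, adjusted p = 0.0966), and the calls with dCeMM-2 and dCeMM-3 were lost with no filter on low counts (adjusted p = 0.0644 and 0.270). With dCeMM-1 RBX1 was not called (0.14, 95% interval -0.02 to 0.30).

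**Figure D4:**
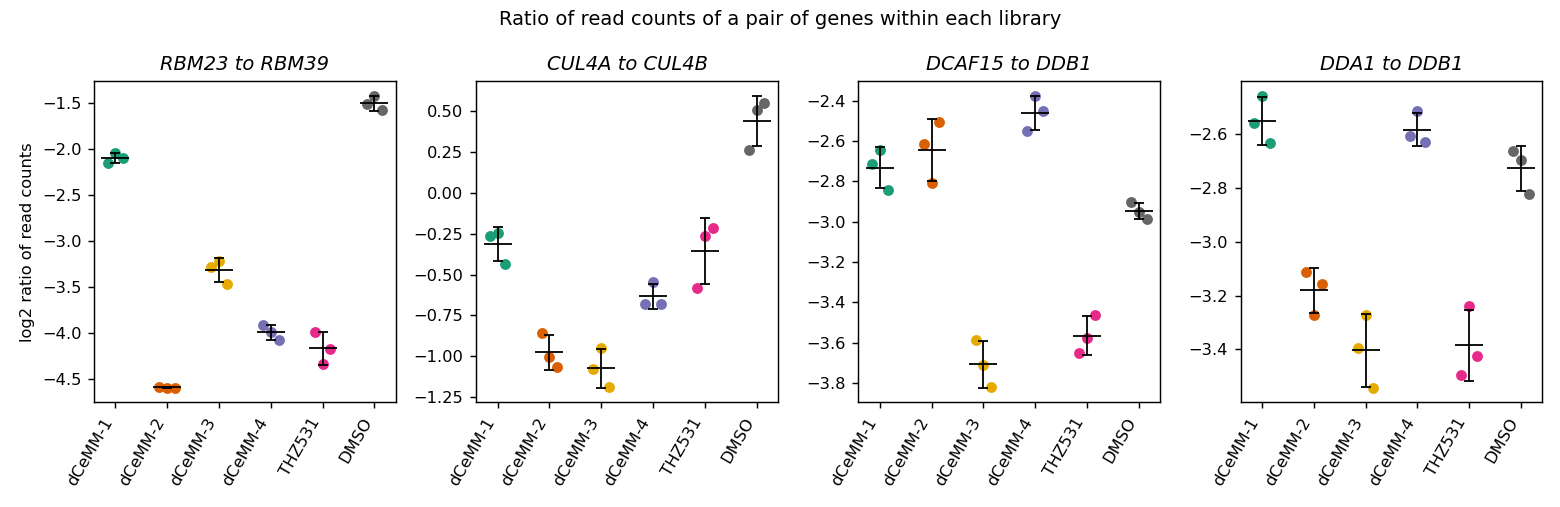
Log2 ratio of read counts of a pair of genes within each library (y axes), by group (x axes); points are libraries, bars the mean and whiskers the SD of 3. RBM23 to RBM39 and CUL4A to CUL4B are below DMSO in all 15 treated libraries, while DCAF15 to DDB1 is above DMSO with dCeMM-1, dCeMM-2 and dCeMM-4 and below it with dCeMM-3 and THZ531.

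Within a library the receptor and its small partner also shifted against the adaptor. The log2 ratio of DCAF15 to DDB1 differed from DMSO by 0.22 with dCeMM-1, 0.31 with dCeMM-2, -0.76 with dCeMM-3, 0.49 with dCeMM-4 and -0.62 with THZ531. That of DDA1 to DDB1 differed by 0.18 with dCeMM-1, -0.45 with dCeMM-2, -0.68 with dCeMM-3, 0.14 with dCeMM-4 and -0.66 with THZ531. In all 10 cases the 3 treated libraries lay on one side of the 3 DMSO libraries (exact two-sided permutation p = 0.1 each). How many other pairs of genes separate in this way was not computed, for these ratios or those above. Single genes often did, by the shares given below. With dCeMM-1 neither DCAF15, DDA1 nor DDB1 was called on its own under TMM scaling.

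Counted together, 3 of the 8 genes rose and 1 fell with dCeMM-1, where 31.3% of all genes tested were called (16.5% higher and 14.8% lower). With dCeMM-2, 3 rose and 4 fell, against 78.3% of all genes called (37.1% higher and 41.2% lower). With dCeMM-3, 2 rose and 5 fell, against 81.0% called (35.9% higher and 45.1% lower). With dCeMM-4, 5 rose and 3 fell, against 68.2% called (32.9% higher and 35.3% lower). With THZ531, 3 rose and 5 fell, against 79.5% called (35.8% higher and 43.7% lower). In the last 4 comparisons most genes of the transcriptome were called, so the number of called genes among these 8 is near that background and the sizes carry the description. The median log2 fold change of the 8 was 0.096 with dCeMM-1, -0.17 with dCeMM-2, -0.80 with dCeMM-3, 0.27 with dCeMM-4 and -0.41 with THZ531, against 0.028, -0.023, -0.15, 0.0054 and -0.095 for all genes tested. Groups that did not overlap at all numbered 4 above and 2 below DMSO with dCeMM-1, against 23.8% and 20.6% of all genes. They numbered 3 and 4 with dCeMM-2 (37.1% and 41.2%), 2 and 5 with dCeMM-3 (35.1% and 44.5%), 4 and 3 with dCeMM-4 (34.4% and 36.1%) and 2 and 5 with THZ531 (35.8% and 43.8%).

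Scaled by spike-ins, all 8 were called lower with dCeMM-2, where 84.4% of all genes were called (1.48% higher and 83.0% lower). The same held with dCeMM-3 (84.9% called, 1.12% higher and 83.7% lower) and with THZ531 (86.0% called, 1.32% higher and 84.7% lower). With dCeMM-4, 0 of the 8 were higher and 3 lower (54.3% called, 6.30% higher and 48.0% lower), namely RBM23, CUL4A and RBX1; at an unadjusted p under 0.05 edgeR also gave 0 higher and 3 lower. RBM39 was the one gene called with dCeMM-1, as higher (4.17% called, 2.83% higher and 1.34% lower), while 2 were higher and 0 lower at an unadjusted p under 0.05. The share of all genes at an unadjusted p under 0.05 was not computed, here or for any list below.

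Divided by the median length of the coding transcripts of each gene, RBM39 was the most abundant of the 8 in DMSO, at 128 CPM per kb, followed by DDB1 at 71.0, RBM23 at 46.9 and CUL4A at 45.2 CPM per kb. RBX1 was at 38.1, CUL4B at 38.1, DCAF15 at 18.2 and DDA1 at 11.9 CPM per kb, which put the receptor and its small partner lowest of the 8 in DMSO by this length. The place of RBM23 depends on the length used: its principal transcript has 10040 bases, against the median of 2361, and per kb of merged exons RBM23 was lowest of the 8 in DMSO, at 7.89 CPM, below DDA1 at 10.5 and DCAF15 at 14.0. RBM23 was the least abundant of the 8 per length with dCeMM-2, at 4.19, dCeMM-3, at 5.20, dCeMM-4, at 11.8, and THZ531, at 5.40 CPM per kb. With dCeMM-3 RBM39, at 50.3 CPM per kb, was below DDB1 at 66.8 and CUL4B at 61.5. Counts are per gene, and RBM39 alone has 45 annotated transcripts, of which 15 are marked for nonsense-mediated decay and 16 as retained introns, so these levels do not separate productive from other transcripts.

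Set against each other at the same multiple of EC50, the dCeMM compounds gave RBM39 levels that differed in all 6 pairs. RBM39 was higher with dCeMM-1 than with dCeMM-2 by 1.23 on the log2 scale (SE 0.07), than with dCeMM-3 by 2.18 (SE 0.08) and than with dCeMM-4 by 0.33. It was higher with dCeMM-2 than with dCeMM-3 by 0.95 (SE 0.08), and lower than with dCeMM-4 in both (dCeMM-2 -0.89, SE 0.07, and dCeMM-3 -1.85, SE 0.08). The largest adjusted p of the 6 was 8.07e-05. Of all genes tested, 80.3% were called between dCeMM-1 and dCeMM-2, 82.5% between dCeMM-1 and dCeMM-3, 71.7% between dCeMM-1 and dCeMM-4, 43.1% between dCeMM-2 and dCeMM-3, 77.3% between dCeMM-2 and dCeMM-4 and 82.7% between dCeMM-3 and dCeMM-4. RBM23 also differed in all 6, most between dCeMM-1 and dCeMM-2, by 3.71 (SE 0.09), although the difference between dCeMM-2 and dCeMM-3 was not called by spike-in scaling. Beside THZ531, whose dose is not matched, RBM39 had a log2 difference of 1.30 for dCeMM-1, 0.070 for dCeMM-2, -0.88 for dCeMM-3 and 0.96 for dCeMM-4, and RBM23 one of 3.36, -0.35, -0.048 and 1.13 in the same order, where 81.3%, 30.3%, 44.7% and 79.8% of all genes were called. By spike-in scaling the RBM23 difference between dCeMM-2 and THZ531 was -0.30 and not called (adjusted p = 0.560, edgeR), and the libraries overlapped.

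The protein-coding genes whose level over the 18 libraries was most like that of RBM39, among 9870 with a mean of at least 5 CPM, were PRPF39 (Pearson r = 0.991), PLEKHM3 (0.987), DENND4C (0.980), CCNE2 (0.976) and GLCE (0.974). PRPF39, a U1 snRNP-associated splicing factor, had means of 144 CPM with dCeMM-1, 56.0 with dCeMM-2, 27.6 with dCeMM-3, 129 with dCeMM-4 and 50.4 with THZ531, against 80.8 CPM in DMSO. Most like RBM23 were LYSMD3 (0.995), PIK3R4 (0.994) and INTS14 (0.994), and most like DCAF15 were ZNF592 (0.978), SH3BP4 (0.977) and PML (0.974). Between members, DDA1 followed DCAF15 (0.828) and RBM39 (0.823), RBM23 followed CUL4A (0.787), and DDA1 ran opposite to RBX1 (-0.777). These are correlations of log2 CPM over libraries that fall into 6 groups and share their scaling, given as a description only.

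Genes around the ligase were followed from lists of 20 neddylation and cullin regulators, 10 COP9 signalosome subunits and 24 other CRL4 substrate receptors. The COP9 signalosome removes the ubiquitin-like modifier NEDD8 from cullins, and neddylation, its reverse, switches them on. With dCeMM-1, 2 of 20 regulators rose and 6 fell (median -0.12), 1 of 10 signalosome genes rose and 3 fell (-0.012), and 6 of 24 receptors rose and 4 fell (0.087, all genes 0.028). Over all genes tested 16.5% rose and 14.8% fell. Among them DCAF4 fell by 1.17 (-1.17, SE 0.08), DCUN1D5 by 0.59 (-0.59, SE 0.07) and COPS3 by 0.50 (-0.50, SE 0.07), while PHIP rose by 0.45 (SE 0.08). With spike-in scaling DCAF4 (-1.10) was the 1 gene of these 3 lists called with dCeMM-1 by edgeR. At an unadjusted p under 0.05 there were 2 regulators higher and 1 lower, 0 signalosome genes higher and 1 lower, and 2 receptors higher and 1 lower. The share of all genes at that unadjusted threshold was not computed, so these counts have no background beside them.

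With dCeMM-2, 4 of 20 regulators rose and 14 fell (median -0.60), 3 of 10 signalosome genes rose and 6 fell (-0.41) and 6 of 24 receptors rose and 18 fell (-0.54, all genes -0.023). With dCeMM-3 the counts were 1 and 18 of 20 (-0.93), 3 and 6 of 10 (-0.63) and 4 and 14 of 24 (-0.52, all genes -0.15). With THZ531 they were 3 and 14 of 20 (-0.70), 4 and 6 of 10 (-0.61) and 6 and 15 of 24 (-0.62, all genes -0.095). Over all genes tested, 37.1% rose and 41.2% fell under dCeMM-2, 35.9% and 45.1% under dCeMM-3 and 35.8% and 43.7% under THZ531. All 9 medians were below that of all genes in the same comparison. They come from 3 lists in 3 treatments set against the same DMSO libraries, so they are not independent. Whether other sets of genes of like level fall as far was not tested. DCUN1D5, a scaffold of the neddylation reaction, had log2 fold changes of -2.41 under dCeMM-2, -2.19 under dCeMM-3 and -2.48 under THZ531 (SE 0.08 each). CAND1, which exchanges substrate receptors on cullins, was at -1.05, -1.52 and -0.96 in the same order (SE 0.07 each), and the receptor DCAF1 at -1.60, -2.71 and -1.36. Scaled by spike-ins, all 20 regulators, all 10 signalosome genes and all 24 receptors were lower in these groups, except that 23 of 24 receptors were with THZ531, beside 83.0% of all genes under dCeMM-2, 83.7% under dCeMM-3 and 84.7% under THZ531.

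With dCeMM-4, 10 of 20 regulators rose and 6 fell (median 0.16), 5 of 10 signalosome genes rose and 2 fell (0.23) and 6 of 24 receptors rose and 11 fell (-0.18, all genes 0.0054), where 32.9% of all genes rose and 35.3% fell. Differences between compounds in these lists were not tested. DCUN1D3 rose by 1.39 (SE 0.12), UBE2D1, a ubiquitin-conjugating enzyme, by 1.14 (SE 0.09) and the receptor DCAF16 by 1.31 (SE 0.09), whereas NAE1, part of the enzyme that activates NEDD8, fell by 0.92 (-0.92, SE 0.08) and DET1 by 2.48 (-2.48, SE 0.15). By spike-in scaling 2 of the regulators (DCUN1D3 at 0.83 and UBE2D1 at 0.57), 0 of the signalosome genes and 1 of the receptors (DCAF16 at 0.75) were higher with dCeMM-4, and 10, 4 and 16 were lower, against 6.30% of all genes higher and 48.0% lower (at an unadjusted p under 0.05, edgeR gave 2, 0 and 1 higher and 10, 5 and 17 lower).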

How the data were processed

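The authors deposited raw read counts per gene, 1 table per library, with counts of 99 ERCC and SIRV spike-in features in the same tables. Per the submitters' processing notes, the tools named are HTSeq 0.11.2, STAR 2.5.2b, Trimmomatic 0.32 and Picard, and the builds hg38 and GRCh38.p7, with neither role nor order; the strand setting is not stated. Per the labels' protocols, libraries were made with a total RNA kit after poly-A enrichment. Lines that name no gene were left out of library sizes: reads with no feature were 4.43% to 9.05% of the total and reads aligned at several positions 27.0% to 44.3%. GENCODE 29 gave symbols and positions for 57447 of 58051 identifiers.

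Counts were analysed in R 4.3.3 with edgeR 4.0.16 and limma 3.58.1 (filterByExpr, TMM, robust quasi-likelihood fit, 18 libraries, 1 coefficient per group, 12 residual degrees of freedom), with 15 contrasts and DESeq2 1.42.0 as an alternative. The fit was also run on simulated counts in which a small set of genes changed, with dCeMM-1 alone and with a fixed spread. Changes as broad as those with dCeMM-2, dCeMM-3, dCeMM-4 and THZ531 were not simulated, so this run does not check the scaling for them. Same-group libraries differed by more than sampling noise (chi-square per degree of freedom 1.43 to 18.9), so none was merged with another as a repeat deposit. This does not show separate cultures, which nothing states, so p-values measure the spread between these libraries. Per-length levels use the median length of basic coding transcripts. Count ratios were compared with exact two-sided permutation tests. Named genes are the 8 members, up to 4 list members with the lowest adjusted p per comparison, and the 5 (RBM39) or 3 (RBM23, DCAF15) most similar genes. The members, lists and rules were chosen with earlier results of these data known.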

Additional observations from a re-analysis of the deposited data

How the results depend on the processing

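Spike-in scaling changed directions and calls. By spike-in counts the numbers of genes called higher were 1 with dCeMM-1 and 0 with dCeMM-2, dCeMM-3, dCeMM-4 and THZ531, and the numbers called lower were 0 with dCeMM-1 and 8 with dCeMM-2, dCeMM-3 and THZ531. Directions that turned with spike-in scaling were those of RBM39 with dCeMM-4 (-0.059), DCAF15 with dCeMM-2 (-1.45), DDA1 with dCeMM-4 (-0.098) and DDB1 with dCeMM-2 (-1.75), dCeMM-4 (-0.25) and THZ531 (-1.61). CUL4B turned with dCeMM-2 (-1.22), dCeMM-3 (-1.11), dCeMM-4 (-0.33) and THZ531 (-1.53), and RBX1 with dCeMM-2 (-1.48), dCeMM-3 (-1.58) and THZ531 (-1.45). Values near 0 changed sign elsewhere: DDA1 with dCeMM-1 was -0.027 with DESeq2, -0.028 with DESeq2 size factors inside edgeR, -0.022 in a fit of the groups compared only, and -0.039 to 0.057 with 1 library left out. DDB1 with dCeMM-2 was -0.035 with no filter, and with dCeMM-3 it was 0.072 with DESeq2, 0.073 with its size factors, 0.12 with a filter of 5 CPM and 0.14 in a fit of the groups compared only. RBM39 between dCeMM-2 and THZ531 was -0.0073 with DESeq2 and -0.0072 with its size factors. With dCeMM-1 the number called lower was 2 with DESeq2, with its size factors and in a fit of the groups compared only. Over all genes 2371 of 15055, 2535 of 15055 and 2826 of 13868 were lower in that order. With 1 library left out the number was 1 to 2, beside 1752 to 2082 of all genes. With dCeMM-3 the number called higher was 1 with no filter, beside 5394 of 35976 genes. It was 1 to 2 with 1 library left out, beside 5112 to 5319 of all genes.

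RBM39 and RBM23 kept direction and call against DMSO in all 6 alternatives other than spike-in scaling and with each library left out. Without 1 library RBM23 ranged from -3.54 to -3.41 with dCeMM-2, -3.22 to -3.15 with dCeMM-3, -2.02 to -1.96 with dCeMM-4 and -3.23 to -3.06 with THZ531, and RBM39 from 0.83 to 0.86 with dCeMM-1. Over the 6 alternatives the log2 fold change of RBM39 ranged from -0.45 to -0.22 with dCeMM-2 and from -0.53 to -0.27 with THZ531. Replicate numbers were not taken as pairing: 8 of 45 pairs of libraries of different groups with the same number had deviations correlated above 0.1, and 9 of 18 libraries correlated best with their own number. The median correlation was 0.011 for pairs with the same number and 0.0022 for pairs with different numbers. Weak structure shared by number is not excluded by these figures. With the replicate block RBM39 with dCeMM-1 was 0.84, and none of the 50 log2 fold changes computed with it changed direction or call. The 10 counts of called genes follow from these calls. The 20 ratio differences are the same with and without the block by construction, so they are no check. All 20 differences in log2 count ratios kept their direction with each library left out. This had to be so, because in each the treated and DMSO libraries do not overlap, and it is no further check. Depth limits RBM23 most, with 68 to 191 counts per library with dCeMM-2, dCeMM-3 and THZ531.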

Other observations

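Splicing partners of RBM39 were followed as a list of U2AF homology motif proteins and the factors they bind, of which 15 of 16 genes were tested. With dCeMM-1, 2 rose and 5 fell (median log2 fold change -0.067, all genes 0.028; 16.5% of all genes rose and 14.8% fell), among them SF3B1, a branch point factor of the U2 snRNP, higher by 0.43 (SE 0.07), and PUF60 and SF3A3 at -0.46 and -0.48. By spike-in scaling edgeR called 0 of the 15 with dCeMM-1, with 1 higher and 1 lower at an unadjusted p under 0.05. With dCeMM-4, 10 rose and 1 fell (median 0.35, all genes 0.0054), where 32.9% of all genes rose and 35.3% fell. RBM17 was at 0.91, U2AF2 at 0.59 and SF3B3 at -0.65, while spike-in scaling left 0 higher and 4 lower (6.30% and 48.0% of all genes), as did an unadjusted p under 0.05. With dCeMM-3, 2 rose and 11 fell (median -0.68, all genes -0.15; 35.9% and 45.1% of all genes), with PUF60 at -2.53 and SF3B4 at -1.83. With dCeMM-2 the counts were 4 and 7 (37.1% and 41.2% of all genes), with SF3B3 at -1.33 and SF3A2 at 0.89, and with THZ531 4 and 11 (35.8% and 43.7%), with SF3B3 at -1.30. Scaled by spike-ins, all 15 were lower with dCeMM-2, dCeMM-3 and THZ531, where 83.0%, 83.7% and 84.7% of all genes were.

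Of 7 other cullins and RING partners, CUL1, the scaffold of SCF ligases, fell with every compound, at -0.33 with dCeMM-1, -2.52 with dCeMM-2, -3.13 with dCeMM-3, -1.29 with dCeMM-4 and -2.54 with THZ531 (SE 0.07 to 0.08, edgeR). CUL2 was at -1.91, -2.69 and -2.14 under dCeMM-2, dCeMM-3 and THZ531. CUL3, the scaffold of BTB ligases, was at -0.49, -2.72 and -1.04 in the same order, but higher by 0.64 with dCeMM-4 (SE 0.06), a rise that was not called by spike-in scaling (0.081, adjusted p = 0.766, edgeR). CUL7 rose by 0.86 with dCeMM-2 and 1.07 with dCeMM-3, and by spike-in scaling it was lower in both (-0.91 and -0.74). In all, 3 of the 7 rose and 1 fell with dCeMM-1 (16.5% and 14.8% of all genes), and 2 and 4 with dCeMM-2 (37.1% and 41.2%). The counts were 2 and 4 with dCeMM-3 (35.9% and 45.1%), 3 and 3 with dCeMM-4 (32.9% and 35.3%) and 2 and 4 with THZ531 (35.8% and 43.7%). Scaled by spike-ins, all 7 were lower with dCeMM-2, dCeMM-3 and THZ531, where 83.0%, 83.7% and 84.7% of all genes were. With dCeMM-4, 0 were higher and 4 lower (6.30% and 48.0% of all genes), also at an unadjusted p under 0.05. With dCeMM-1, 0 were called by edgeR, also at an unadjusted p under 0.05.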
